A study of Mus musculus with 6 samples.

Results

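The 38 genes described here are cell-cycle genes taken from a list, 20 of them used mainly in G2 and mitosis (G2/M) and 18 in DNA replication and repair during S phase, out of 31053 genes in the count tables. All 38 were present in the tables, and the list was chosen with earlier results of these data known. They were measured in nuclei from mouse hippocampus at 9.5 months of age, sorted for PU.1, a transcription factor of myeloid cells that marks microglia, and sequenced as single nuclei. There were 6 libraries, 1 for each genotype, and each was a pool of 3 mice. P301S/E4 carries the P301S tau mutation together with APOE4, P301S/EKO carries P301S tau without Apoe, and E4 carries APOE4 without the tau mutation. Each of these backgrounds was measured with Trem2, a microglial lipid receptor (TREM2+), and with Trem2 deleted (TREM2-). P301S/E4 and E4 thus share APOE4, and P301S/E4 and P301S/EKO share the tau mutation. The promoter that drives the tau transgene and the part of Trem2 that was deleted are not given in the sources used here.

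A cell that divides copies its DNA in S phase and separates the copies in mitosis. The replicative helicase (the Mcm genes), the sliding clamp Pcna and the enzymes that make nucleotides serve S phase. Condensins, the spindle motors of the kinesin family, the kinetochore proteins and the checkpoint kinases serve G2/M. Transcription of S genes is driven by E2F factors at the start of S phase, and that of many G2/M genes is held back in resting cells by a repressor complex that binds an element called CHR. Microglia in adult brain renew themselves slowly by local division, and they divide more when they react to disease.

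Trem2 messenger counts were lower in the TREM2- library of each background, at 580 against 1114 CPM in P301S/E4, 469 against 976 in P301S/EKO and 348 against 917 in E4. A UMI is a molecular tag that counts 1 transcript molecule, and levels are given as CPM, the usual scaling of UMIs by the total of the library. Apoe was at 14.2 and 9.14 CPM in the P301S/EKO libraries and between 187 and 1184 CPM in the others. After filtering, 31738 nuclei with 28636665 UMIs were left, between 3582 and 7004 nuclei and between 3172124 and 8376816 UMIs per library. The P301S/E4/TREM2- library had the most of each and the highest median, 915 UMIs per nucleus, against 569 to 807 in the others. Deposited nuclei held at least 500 UMIs in 3 of the libraries, and at least 224 to 438 UMIs in the other 3, which were P301S/EKO/TREM2- and the E4 pair. All 23 microglia markers were detected in every library, at 24280 to 36110 CPM in sum, while T or NK cell markers summed to 2.14 CPM at most and neuron markers to between 216 and 2113 CPM. Pairs of libraries shared 5 to 13 barcodes.

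The promoters show which elements of the G2/M and S programmes named above the members carry. Of the 38 members, 32 matched the RefSeq promoter table of GRCm38.p6, and the 250 bases before the transcription start are given for the 3 members of each phase that had the most UMIs among those matched. Capitals mark the elements found by a search of both strands. The CHR element was searched as TTTGAA and in its other common form, which has the letters TTCGAA. The other elements were the box with the letters CCAAT and the E2F site, which was searched in a form with the letters TTTCCCGC and in another form with the letters TTTGGCGC.
Cenpf, chr1:189688087-189688336, minus strand: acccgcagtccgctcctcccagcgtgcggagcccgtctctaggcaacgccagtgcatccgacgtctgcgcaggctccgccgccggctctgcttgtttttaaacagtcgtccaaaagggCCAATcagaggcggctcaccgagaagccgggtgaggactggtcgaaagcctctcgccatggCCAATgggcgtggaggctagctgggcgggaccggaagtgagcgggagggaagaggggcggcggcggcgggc
Smc2, chr4:52438971-52439220, plus strand: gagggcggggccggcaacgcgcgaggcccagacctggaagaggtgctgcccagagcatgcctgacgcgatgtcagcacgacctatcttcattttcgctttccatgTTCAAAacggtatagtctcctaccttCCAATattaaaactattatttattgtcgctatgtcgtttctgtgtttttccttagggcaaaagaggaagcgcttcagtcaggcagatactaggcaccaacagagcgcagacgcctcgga
Top2a, chr11:99024190-99024439, minus strand: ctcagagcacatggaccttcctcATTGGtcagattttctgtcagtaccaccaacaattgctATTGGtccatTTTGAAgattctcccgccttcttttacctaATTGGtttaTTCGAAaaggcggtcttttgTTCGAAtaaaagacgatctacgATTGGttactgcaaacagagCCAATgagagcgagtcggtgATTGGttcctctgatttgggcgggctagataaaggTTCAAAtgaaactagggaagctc
Mcm7, chr5:138171884-138172133, minus strand: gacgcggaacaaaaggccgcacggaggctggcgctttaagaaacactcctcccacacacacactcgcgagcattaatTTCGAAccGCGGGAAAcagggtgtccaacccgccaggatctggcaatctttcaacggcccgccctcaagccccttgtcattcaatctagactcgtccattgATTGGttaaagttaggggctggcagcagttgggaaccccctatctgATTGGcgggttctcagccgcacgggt
Ezh2, chr6:47595031-47595280, minus strand: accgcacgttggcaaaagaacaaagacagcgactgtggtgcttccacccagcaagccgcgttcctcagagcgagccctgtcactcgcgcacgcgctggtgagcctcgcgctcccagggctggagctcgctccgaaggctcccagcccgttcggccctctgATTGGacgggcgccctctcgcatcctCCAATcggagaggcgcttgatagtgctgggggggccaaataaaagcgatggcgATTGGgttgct
Pola1, chrX:93632156-93632405, minus strand: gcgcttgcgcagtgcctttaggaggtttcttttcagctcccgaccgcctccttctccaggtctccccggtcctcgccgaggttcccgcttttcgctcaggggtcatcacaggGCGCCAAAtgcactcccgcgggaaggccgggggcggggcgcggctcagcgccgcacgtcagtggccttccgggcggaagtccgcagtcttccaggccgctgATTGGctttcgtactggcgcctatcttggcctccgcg

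A CHR element lay in the window of 8 of 17 G2/M members with a promoter (47.1%) and of 3 of 15 S members, against 17.1% of all 32851 promoters. A CCAAT box lay in 13 of 17 G2/M and 14 of 15 S members, against 33.8% of all promoters. An E2F site of the letters given lay in 1 of 17 G2/M and 5 of 15 S members (Dtl, Mcm5, Mcm6, Mcm7 and Pola1), against 1.30% of all promoters. A match is a description of these letters, and no match says only that they are not in this window.

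Summed over the 18 S members, the level was 415 CPM in P301S/E4/TREM2-, with a 95% Poisson interval of 402 to 429. It was 226 (214 to 239) in P301S/E4/TREM2+, 223 in P301S/EKO/TREM2-, 244 in P301S/EKO/TREM2+, 209 in E4/TREM2- and 209 in E4/TREM2+. The 20 G2/M members summed to 269 CPM (258 to 280) in P301S/E4/TREM2- and 149 (139 to 159) in P301S/E4/TREM2+. They summed to 136 and 127 in the TREM2- and TREM2+ libraries of P301S/EKO, and to 133 and 100.9 in those of E4. Both sums were thus highest in the P301S/E4/TREM2- library, and its intervals did not overlap those of any other library. These intervals and all those between libraries cover counting error only: with 1 library per genotype, the difference between any 2 libraries has no replicate check. In a sum over nuclei, more nuclei with a transcript and more transcript per nucleus cannot be told apart.

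**Figure D1:**
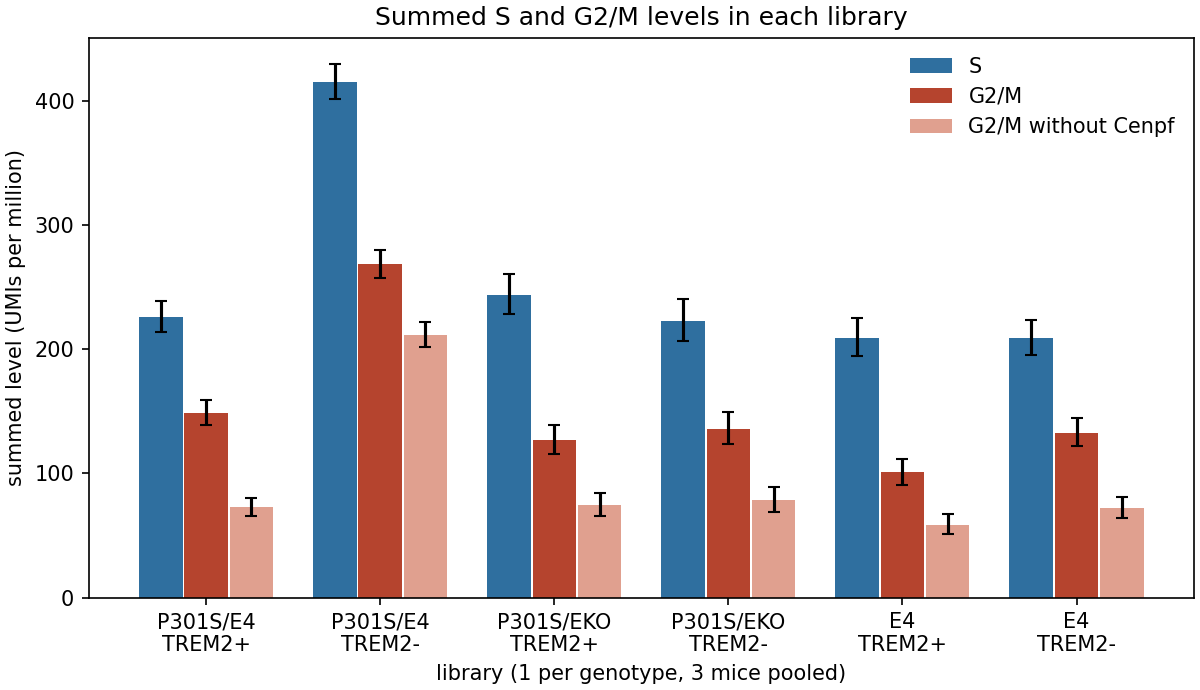
Summed level of the 18 S members, the 20 G2/M members and the G2/M members without Cenpf in CPM (vertical axis) in each of 6 libraries, with 95% Poisson intervals. The P301S/E4/TREM2- library reaches 415 CPM for S and 269 CPM for G2/M, above all 5 others.

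Among single members, 16 of 20 G2/M and 14 of 18 S members had their highest CPM in the P301S/E4/TREM2- library. Over all 15036 genes with at least 20 UMIs in the 6 libraries, a count that 37 of the 38 members reached, 24.3% did. The exceptions were Cenpf, Ccna2, Ccnb1 and Cdk1 among the G2/M members and Mcm4, Mcm7, Pcna and Rrm1 among the S members.

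Mki67, which coats mitotic chromosomes and is the standard marker of proliferating cells, had 23.9 CPM in P301S/E4/TREM2-. It had 2.08 CPM in P301S/E4/TREM2+, 5.04 and 4.55 in the TREM2- and TREM2+ libraries of P301S/EKO, and 3.74 and 2.53 in those of E4. The highest library stood apart from the other 5, which lay within a narrow range. Top2a, the topoisomerase that disentangles the copied chromosomes (chromosome 11, 98992943 to 99024189, minus strand, GRCm38), had 46.9, 6.92, 7.88, 6.15, 10.96 and 5.62 CPM in the same order, the first being P301S/E4/TREM2-. Knl1, the scaffold of the outer kinetochore, had 20.1, 3.81, 5.36, 3.21, 4.48 and 3.37 CPM. Cenpe, a kinetochore motor, had 11.3, 3.46, 2.52, 2.41, 2.99 and 0.281 CPM. For each of these 4 genes P301S/E4/TREM2- stood far above the highest of the 5 other libraries.

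Of the kinesins, Kif11, which pushes the spindle poles apart, had 4.54 CPM (38 UMIs) in P301S/E4/TREM2-. It had 0.562 to 1.26 CPM (2 to 4 UMIs) in each other library. Kif20b, which acts in cytokinesis, had 12.9 CPM there and 4.41 to 6.42 elsewhere. Kif15, a spindle motor, was spread more evenly, with 14.4, 8.14, 11.03, 6.69, 6.47 and 5.06 CPM. The checkpoint kinase gene Bub1b had 7.28 CPM in P301S/E4/TREM2- and 0.747 to 1.69 elsewhere. Its relative Bub1 had 16 UMIs in P301S/E4/TREM2-, 1 in E4/TREM2+ and 0 in the other 4 libraries, so it was at least 3.68-fold higher in P301S/E4/TREM2- than the limit of 3 UMIs allows in P301S/E4/TREM2+. Tpx2, a spindle assembly factor, had 2.51 CPM against 0.281 to 1.49, from 21 UMIs against 1 to 6. Its interval (1.55 to 3.83) overlapped that of E4/TREM2- (0.548 to 3.25). Anln, a scaffold of the contractile ring, had 6.33 CPM against 2.60 to 3.47, and Smc4, a condensin subunit, 19.1 CPM against 7.87 to 10.7. The other condensin subunit, Smc2, differed less, with 30.1 CPM against 17.4 to 21.4.

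Several G2/M members with few UMIs did not set this library apart. The mitotic cyclin gene Ccnb1 had 10 and 7 UMIs in P301S/E4/TREM2- and P301S/E4/TREM2+ and 1 or 2 in each other library. Cdk1, its kinase partner, had 11 UMIs in P301S/E4/TREM2-, 9 in P301S/EKO/TREM2+ and 0 to 5 in the rest. The cyclin gene Ccna2 lay between 1.41 and 2.94 CPM in all 6 libraries. Aspm, Ect2 and Hmmr, which act at the spindle poles, in cytokinesis and on the spindle, had 16, 19 and 11 UMIs in P301S/E4/TREM2- and at most 4, 6 and 4 elsewhere. In CPM they had 1.91, 2.27 and 1.31 there and at most 1.26, 1.61 and 1.12 elsewhere. At these counts the differences between single libraries are small numbers of molecules.

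Among the S members, Dtl, the substrate receptor of a ubiquitin ligase that acts on chromatin during replication, had 18.7 CPM in P301S/E4/TREM2-. It had 2.94, 3.15, 3.48, 4.98 and 2.53 CPM in the other libraries, in the order above. Rad51ap1, a recombination factor, had 22.3 CPM against 5.37 to 8.22, Neil3, a DNA glycosylase, 9.43 against 1.04 to 2.84, and Esco2, which acetylates cohesin in S phase, 9.67 against 1.41 to 4.23. Brca1 and its partner helicase Brip1, both of homologous recombination, had 8.71 against 0.843 to 3.75 and 7.64 against 1.12 to 2.84 CPM. Rrm2, the limiting subunit of the enzyme that makes deoxynucleotides, had 18 UMIs in P301S/E4/TREM2-, 0 in all 3 TREM2+ libraries, 2 in P301S/EKO/TREM2- and 3 in E4/TREM2-. It was at least 4.14-fold higher in P301S/E4/TREM2- than the limit of 3 UMIs allows in P301S/E4/TREM2+.

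The more evenly expressed S members differed less between libraries. Pola1, the catalytic subunit of the priming polymerase (chromosome X, 93304767 to 93632155, minus strand), had 36.8 CPM in P301S/E4/TREM2- and 15.1 to 22.3 elsewhere. Ezh2, a histone methyltransferase, had 38.4 against 16.9 to 20.9 CPM, and Mcm6, a helicase subunit, 24.1 against 11.7 to 15.0. Mcm2 had 10.0 against 3.47 to 6.97 and Mcm5 7.76 against 1.97 to 4.41 CPM. By contrast the helicase subunit gene Mcm7 had 32.2 CPM in P301S/E4/TREM2- and 28.0 to 40.5 elsewhere, and Pcna had 12.3 against 7.59 to 14.0. Mcm4 (8.12 CPM against 3.98 to 8.43) and Rrm1, the large subunit of the nucleotide enzyme (14.4 against 8.83 to 14.7), also lay within the range of the other libraries.

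**Figure D2:**
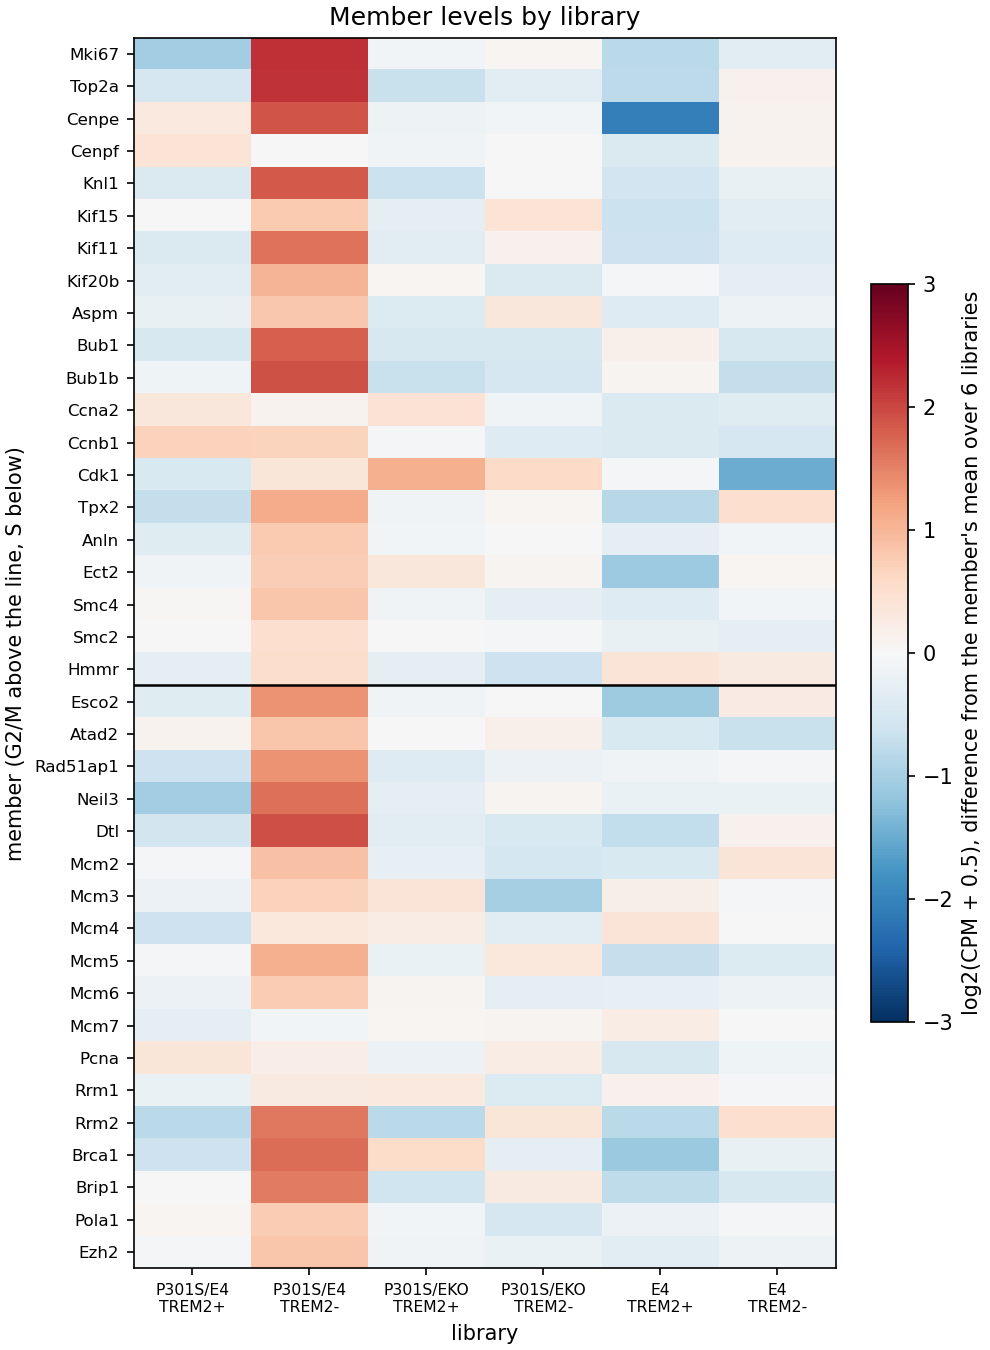
Level of each member (rows, G2/M above the line and S below) in each library (columns), as the difference of log2(CPM + 0.5) from the member's own mean over the 6 libraries. The column of P301S/E4/TREM2- is the red one in most rows, with Cenpf, Ccna2, Ccnb1, Cdk1, Mcm4, Mcm7, Pcna and Rrm1 as the exceptions named in the text.

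Atad2, a chromatin ATPase and the S member with the most UMIs (2308 over the 6 libraries), had 123, 73.9, 76.0, 69.6, 43.1 and 49.7 CPM in the order of libraries used for Mki67. All 4 libraries with the tau mutation lay above both E4 libraries. Cenpf, a centromere protein and the G2/M member with the most UMIs (chromosome 1, 189640606 to 189688086, minus strand), went against the other G2/M members. Its levels were 57.1, 76.2, 57.4, 52.4, 61.0 and 42.2 CPM, highest in P301S/E4/TREM2+. Without Cenpf the G2/M sum was 212 CPM (202 to 222) in P301S/E4/TREM2-, 72.9 (66.1 to 80.2) in P301S/E4/TREM2+ and 58.7 to 78.5 in the other 4. Leaving out Cenpf was chosen after seeing the data.

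In 1113 nuclei with at least 5 UMIs of 9 markers of border-associated macrophages, which sit at the borders of the brain and share many genes with microglia, Cenpf was at 221 CPM against 45.5 in all other nuclei, a ratio of 4.86. For the other 37 members that ratio had a median of 1.04, and its highest value was 2.56 for Bub1, with 3 UMIs in those nuclei. The ratio of Cenpf was above 1 in each library, from 1.83 in P301S/E4/TREM2- to 27.2 in P301S/EKO/TREM2-. All 9 macrophage markers were detected in every library, with a sum of 385 to 1021 CPM. In the authors' deposited table of cluster markers, Cenpf was listed for the cluster named Mac with a log fold change of 3.62. The same table listed 12 of the 38 members among the 50 markers of the cluster named Prol, 7 of them S members and 5 G2/M members, with log fold changes between 3.95 for Ezh2 and 8.85 for Esco2. Outside the macrophage-marker nuclei, Cenpf was at 51.4 and 67.3 CPM in P301S/E4/TREM2- and P301S/E4/TREM2+, and at 23.3 to 41.3 CPM in the 4 other libraries. How much of the G2/M sum those nuclei set was not tested beyond the values given.

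TREM2 deletion was compared within each background. Between P301S/E4/TREM2- and P301S/E4/TREM2+, the S sum was 1.84 times higher (95% interval for counting error 1.72 to 1.96) and the G2/M sum 1.80 times higher (1.67 to 1.95), or 2.90 times (2.61 to 3.24) without Cenpf. Of the 33 members with at least 20 UMIs in this pair, 19 were more than 2-fold higher and 0 more than 2-fold lower. Over all 13382 such genes, 3.27% were more than 2-fold higher and 3.39% lower, and the median log2 ratio was 0.04. The median of the members was 1.44 for G2/M and 1.00 for S. Mki67 was higher by 3.52 on the log2 scale (2.69 to 4.50), Top2a by 2.76 (2.29 to 3.27), Neil3 by 3.18 (2.00 to 4.67) and Dtl by 2.67 (1.95 to 3.49). Among the members with at least 20 UMIs the interval lay above 0 for 27 of 33, where it did for 21.4% of all such genes, and below 0 for 1 (15.3% of all), which was Cenpf at -0.42 (-0.61 to -0.23). For Pcna (-0.19), Mcm7 (0.20) and Ccna2 (-0.29) it held 0.

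In the other backgrounds few members passed 2-fold. In P301S/EKO, the S sum of TREM2- was 0.915 times that of TREM2+ (0.828 to 1.01) and the G2/M sum 1.07 times (0.936 to 1.22). Of 24 members with at least 20 UMIs, 0 were more than 2-fold higher, where 1.69% of all genes were, and 1, Mcm3, was more than 2-fold lower, where 2.05% of all genes were. In E4, the S ratio was 0.999 (0.904 to 1.10) and the G2/M ratio 1.32 (1.15 to 1.51), or 1.23 (1.02 to 1.47) without Cenpf. Of 22 members, 1 (Esco2, 17 against 5 UMIs) was more than 2-fold higher and 0 lower, against 3.29% and 1.09% of all genes. The log2 ratio was above 0 for 15 of the 22, where it was for 5721 of 12522 such genes. Its median was 0.20, against -0.03 over all genes. Whether the effect of TREM2 deletion differs between backgrounds cannot be tested with 1 library per genotype.

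**Figure D3:**
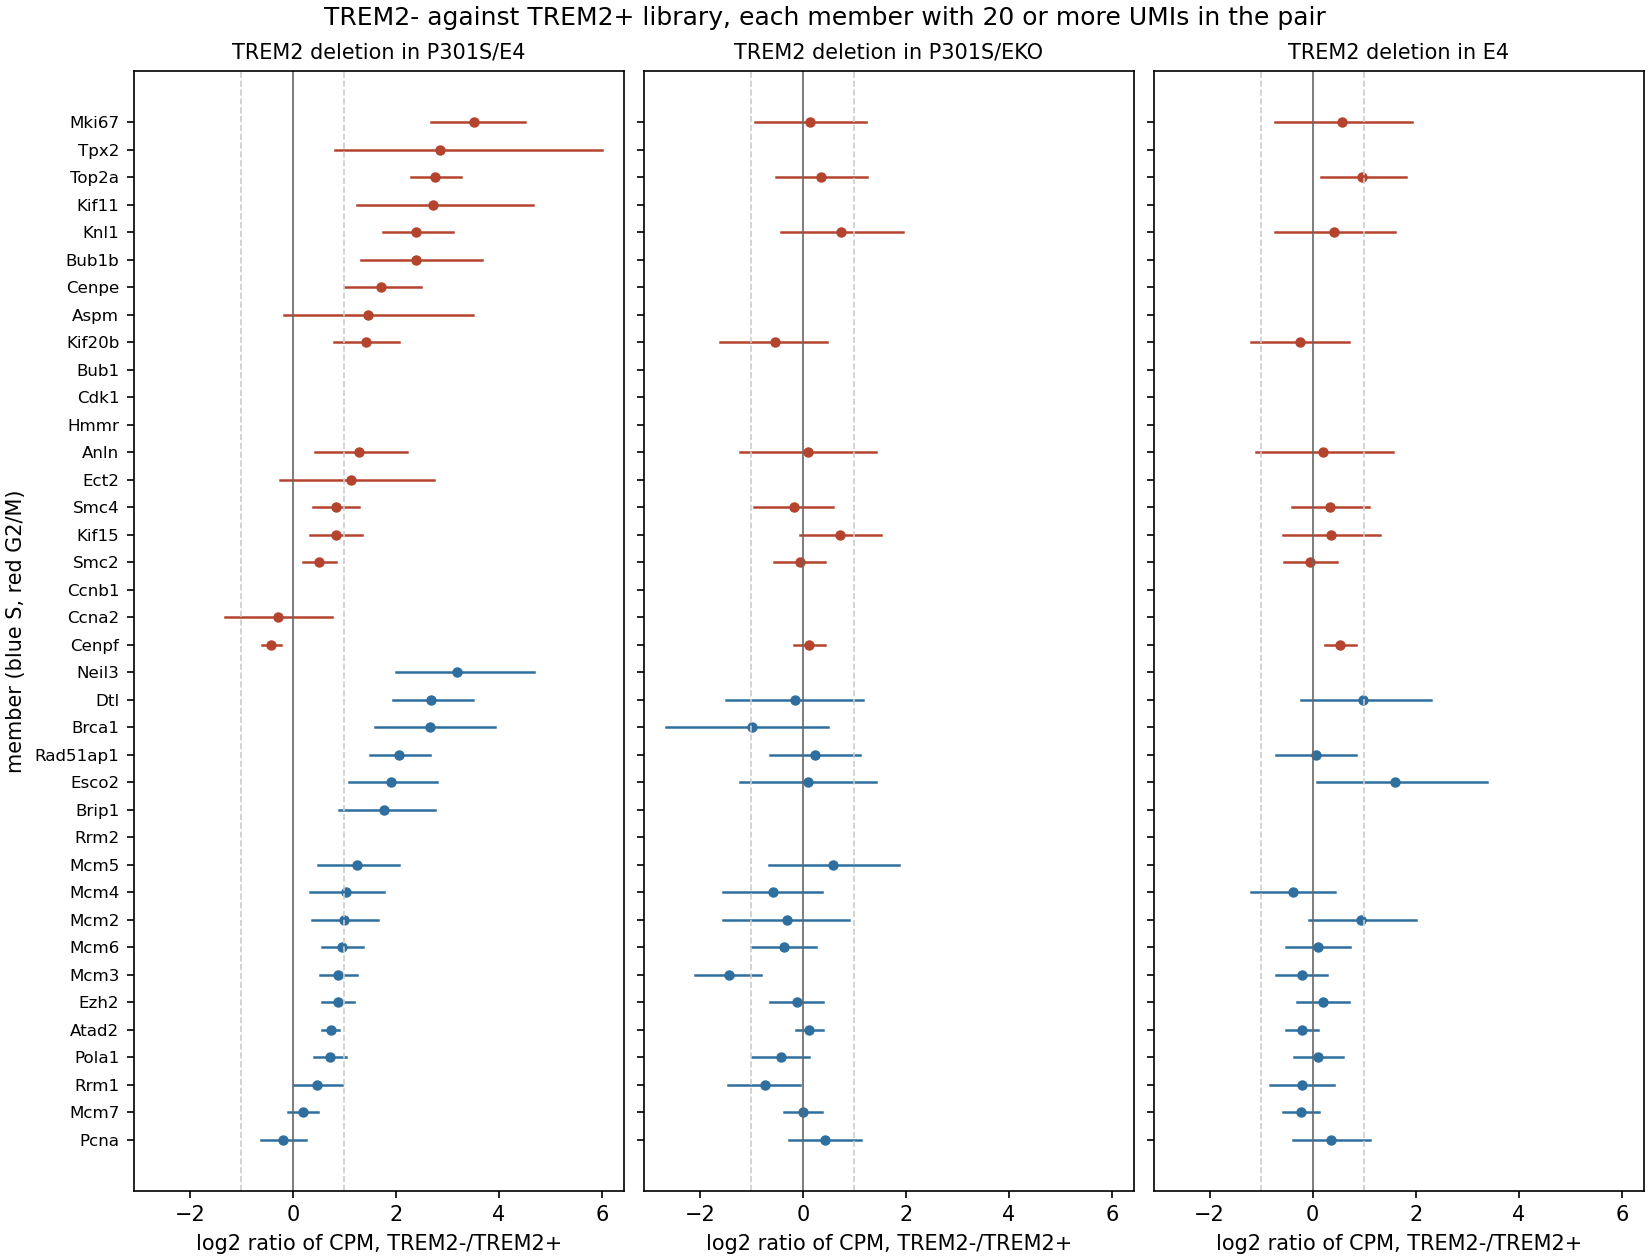
Log2 ratio of CPM in the TREM2- over the TREM2+ library (horizontal axis) for each member with at least 20 UMIs in the pair, with 95% intervals for counting error, in P301S/E4, P301S/EKO and E4; a member with no point had fewer UMIs. In P301S/E4 most points lie to the right, up to 3.52 for Mki67. In P301S/EKO 12 of 24 points lie above 0, and in E4 15 of 22 do.

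The tau comparison set P301S/E4 against E4. In TREM2- libraries the S sum was 1.99 times higher with tau (1.84 to 2.14) and the G2/M sum 2.02 times (1.84 to 2.22). Here 17 of 33 members were more than 2-fold higher and 0 lower, where 8.23% of all genes were higher and 10.5% lower. Their median log2 ratio was 1.16, against 0.09 over all genes. In TREM2+ libraries the S ratio was 1.08 (0.986 to 1.18) and the G2/M ratio 1.48 (1.30 to 1.68), or 1.24 (1.05 to 1.47) without Cenpf. There 1 of 25 members was more than 2-fold higher (Cenpe, 20 UMIs against 1) and 1 more than 2-fold lower (Mcm4), where 7.01% and 6.47% of all genes were. The median was 0.23, against 0.01 over all genes. Atad2 was higher with tau in both, by 1.51 (1.28 to 1.75) in TREM2- and 0.57 (0.32 to 0.83) in TREM2+ on the log2 scale. The TREM2- comparison shares its P301S/E4 library with the TREM2 deletion comparison above.

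The APOE4 comparison set P301S/E4 against P301S/EKO. In TREM2- libraries the S sum was 1.86 times higher with APOE4 (1.72 to 2.02) and the G2/M sum 1.98 times (1.78 to 2.20). Of 34 members, 21 were more than 2-fold higher and 0 lower, against 6.26% and 6.99% of all genes. Their median log2 ratio was 1.34, against 0.07 over all genes. In TREM2+ libraries the S ratio was 0.926 (0.851 to 1.01) and the G2/M ratio 1.17 (1.05 to 1.31), or 0.976 (0.837 to 1.14) without Cenpf. There 0 of 26 members were more than 2-fold higher and 2 were lower (Mki67, 12 against 17 UMIs, and Brca1, 8 against 14), where 2.82% and 3.65% of all genes were. This TREM2- comparison also uses the P301S/E4/TREM2- library, as do the TREM2 deletion comparison in P301S/E4 and the tau comparison in TREM2-.

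A model over all 12967 genes that passed a filter on low counts took TREM2 status and background as additive terms, so that the 3 backgrounds serve as replicates for TREM2, with 2 residual degrees of freedom. It was fitted with edgeR's quasi-likelihood test and p-values were adjusted by Benjamini-Hochberg. A difference in the TREM2 effect between backgrounds adds to the residual spread that these p-values rest on. Of the 38 members, 28 passed the filter, 11 of 20 G2/M and 17 of 18 S members. For TREM2 deletion, 0 members were called in edgeR at an adjusted p of 0.05, where 0.147% of all genes were called. An unadjusted p under 0.05 in edgeR was found for 11 of the 28 members and for 826 of all 12967 genes. DESeq2 also called 0 members, where 0.131% of all genes were called. It had 6 members under 0.05 unadjusted, and the share of all genes at that level was not computed. The members' median log2 fold change was 0.66 for G2/M and 0.40 for S, against 0.01 over all genes. The smallest adjusted p was that of Top2a, 0.204 in edgeR, with a log2 fold change of 1.66 (SE 0.38). Leaving out a library moved the count of called members to 3 without E4/TREM2+, 4 without P301S/EKO/TREM2+, 6 without P301S/EKO/TREM2- and 1 without E4/TREM2-, and it stayed at 0 without either P301S/E4 library, where calls over all genes were between 0.561% and 0.949% in these fits. With no filter on low counts 8 members were called, and 1.07% of all genes.

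For tau, 4 members rose and 0 fell in edgeR, where 17.5% of all genes were called. Cenpe rose by 2.10 on the log2 scale (SE 0.55, edgeR adjusted p = 0.0236), Brip1 by 1.79 (SE 0.52, adjusted p = 0.0382), Top2a by 1.42 (SE 0.43, adjusted p = 0.0441) and Atad2 by 1.02 (SE 0.19, adjusted p = 0.00432). A share of 4 in 28 is not above that of all genes. Without P301S/EKO/TREM2+ 7 of 31 members tested were called, where 18.6% of all genes were. Without P301S/EKO/TREM2- 8 of 31 were called, where 19.7% of all genes were. The fits without a P301S/E4 or an E4 library leave 1 library on that side of this contrast, so their counts are left out. DESeq2 called Atad2 alone, where 10.8% of all genes were called. With no filter edgeR called 12, where 14.3% of all genes were called.

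For APOE4 against no Apoe, 0 members were called in edgeR, where 3.74% of all genes were called. An unadjusted p under 0.05 in edgeR was found for 9 members and for 2390 of all 12967 genes. DESeq2 also called 0 members, where 2.38% of all genes were called, with 2 members under 0.05 unadjusted. Top2a had the largest log2 fold change among the members, 1.62 (SE 0.45, edgeR adjusted p = 0.0767). Without E4/TREM2+ 1 of 31 members tested was called (Top2a), where 6.31% of all genes were. Without E4/TREM2- 1 of 30 was called, again Top2a, where 4.92% of all genes were. With no filter 6 were called, where 5.98% of all genes were called. The fits without a P301S/E4 or a P301S/EKO library leave 1 library on that side of this contrast, so their counts are left out.

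The nuclei themselves were counted next. In P301S/E4/TREM2-, 330 of 7004 nuclei held at least 3 S UMIs, or 4.71% (exact binomial 95% interval 4.23 to 5.23). The share was 0.905% (56 nuclei) in P301S/E4/TREM2+, 0.673% in P301S/EKO/TREM2-, 1.70% in P301S/EKO/TREM2+, 0.746% in E4/TREM2- and 0.570% in E4/TREM2+. For G2/M it was 2.47% (173 nuclei, 2.12 to 2.86) in P301S/E4/TREM2- and 0.663% (41 nuclei), 0.396%, 0.838%, 0.808% and 0.216% in the others, in the same order. Without Cenpf, 2.01% of nuclei in P301S/E4/TREM2- (141 nuclei) and 0.210% in P301S/E4/TREM2+ (13 nuclei) held at least 3 G2/M UMIs, a ratio of 9.58 (5.42 to 18.4). The other 4 libraries then lay between 0.157% and 0.419%. The deeper libraries give more nuclei with 3 UMIs, so each nucleus was also thinned to 500 UMIs, which left out 1827 nuclei of P301S/EKO/TREM2-, 417 and 1488 of the TREM2- and TREM2+ libraries of E4, and 0 elsewhere.

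At 500 UMIs the S share was 1.27% (1.02 to 1.56) in P301S/E4/TREM2- and 0.259% to 0.403% in the other 5 libraries. The G2/M share was 0.871% (0.667 to 1.12) against 0.111% to 0.385%. At this depth the intervals of P301S/E4/TREM2- did not overlap those of the other 5 libraries. After thinning to 1000 UMIs, which leaves out the nuclei with fewer, the S share was 5.17% (4.396 to 6.04) against 0.651% to 1.74%, again without overlap. The G2/M share was then 2.90% (2.32 to 3.58), and its interval overlapped that of P301S/EKO/TREM2- (1.54%, 0.501 to 3.55, from 5 of 325 nuclei) and that of E4/TREM2- (1.68%, 0.900 to 2.86, from 13 of 772 nuclei). As a background, 152 nuclei with at least 10 UMIs of markers of neurons, which do not divide, were counted. Of these, 3 (1.97%) held at least 3 S UMIs and 1 (0.658%) at least 3 G2/M UMIs, at a median of 3404.5 UMIs per nucleus against 724 in the other nuclei. At 500 UMIs, 0 of the 152 held 3 UMIs of either phase, for which the exact binomial upper bound is 2.40%.

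**Figure D4:**
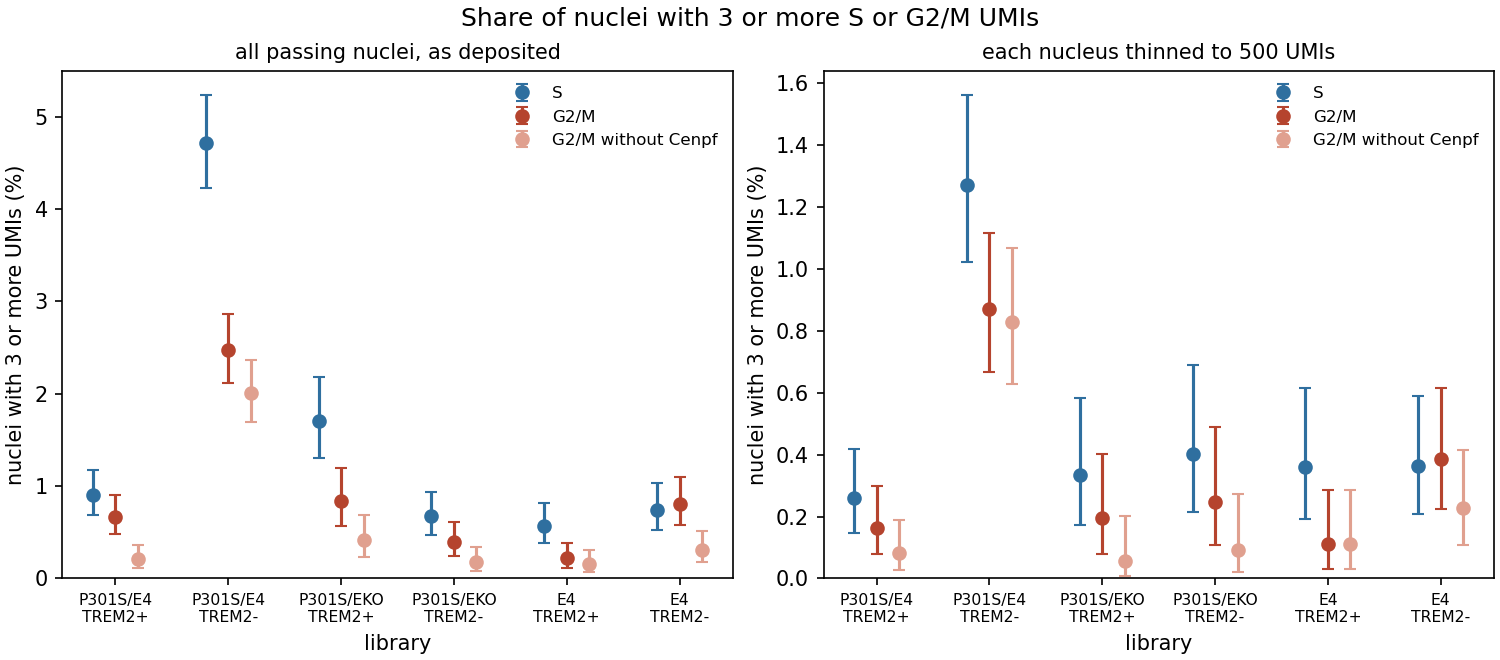
Share of nuclei with 3 or more UMIs (vertical axis, percent) of the S members, the G2/M members and the G2/M members without Cenpf in each library, as deposited (left) and after thinning every nucleus to 500 UMIs (right), with exact binomial 95% intervals. P301S/E4/TREM2- is above the other libraries in both panels, at 4.71% and 1.27% for S.

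Most nuclei with G2/M UMIs also held S UMIs in P301S/E4/TREM2-, but most nuclei with S UMIs did not hold G2/M UMIs. With Cenpf left out of the G2/M count, 117 nuclei of P301S/E4/TREM2- held at least 3 UMIs of both phases, 213 of S alone and 24 of G2/M alone. Thus 83.0% of the nuclei with 3 G2/M UMIs also held 3 S UMIs, and 35.5% of those with 3 S UMIs also held 3 G2/M UMIs. The S members held 3480 UMIs in this library and the G2/M members without Cenpf 1772, so the same cut is met more easily for S. In the other 5 libraries 5 to 14 nuclei held both, 23 to 47 S alone and 1 to 4 G2/M alone. Of all S UMIs, nuclei with at least 3 G2/M UMIs held 28.9% in P301S/E4/TREM2- and 4.16% to 11.8% in the other libraries. The nuclei with both had a median of 1601 UMIs in P301S/E4/TREM2-, against 900 in those with neither.

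The S sum in nuclei with at least 3 G2/M UMIs was 2580 CPM in P301S/E4/TREM2- (2424 to 2745), against 310 CPM in its remaining nuclei. In P301S/E4/TREM2+ the corresponding values were 1540 CPM (1178 to 1979) in 13 nuclei and 217 CPM in the rest. The remaining nuclei of P301S/E4/TREM2- therefore still had a higher S level than those of the other 5 libraries, which were at 185 to 221 CPM. The G2/M level without Cenpf in nuclei under 3 S UMIs was 88.4 CPM (81.8 to 95.5) in P301S/E4/TREM2- and 46.2 to 59.4 in the others.

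Member by member, UMIs were counted in nuclei with at least 3 UMIs of the other G2/M members, Cenpf left out, so that a gene did not choose its own nuclei. In P301S/E4/TREM2-, such nuclei held 3.90% to 4.66% of all UMIs. They held 94.4% of the Rrm2 UMIs, 86.4% of those of Esco2, 84.2% of Kif11, 77.2% of Neil3, 65.1% of Top2a and 63.5% of Mki67. Most S members lay mainly outside them, with 19.1% of the Mcm4 UMIs, 20.3% of Mcm6, 25.2% of Ezh2, 26.1% of Atad2 and 32.1% of Pola1 inside. The lowest shares were 10.7% for Mcm7, 11.7% for Mcm3, 13.2% for Cenpf and 13.6% for Pcna. The level in these nuclei over that in the remaining ones had a median of 28.3-fold over the G2/M members and 7.95-fold over the S members.

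**Figure D5:**
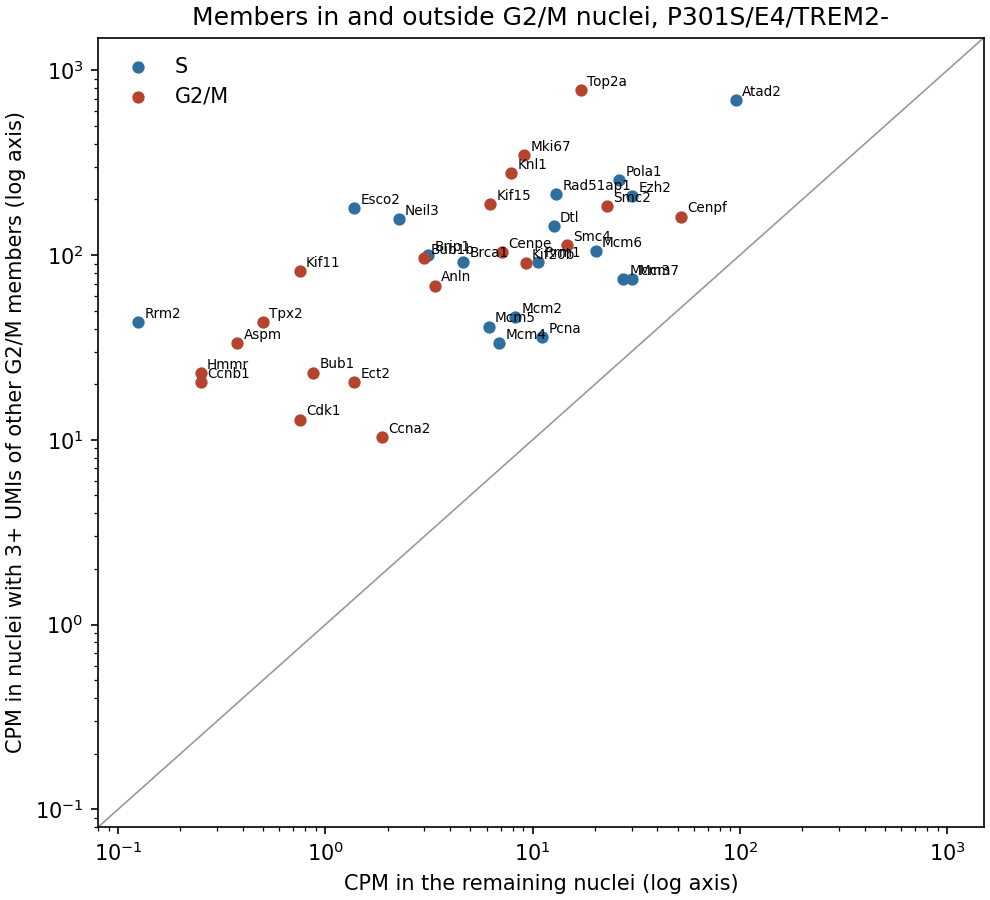
Level of each member in nuclei of P301S/E4/TREM2- with at least 3 UMIs of the other G2/M members (vertical axis, CPM, log scale) against that in the remaining nuclei (horizontal axis, CPM, log scale); the line marks equal levels. All members lie above the line, with Mcm7 and Mcm3 closest to it at 2.46-fold and 2.71-fold and Rrm2 farthest at 348-fold.

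Outside these nuclei, 27 members had at least 20 UMIs in P301S/E4/TREM2- and P301S/E4/TREM2+ together. The interval of their ratio lay above 0 for 17 of the 27 (10 of 15 S and 7 of 12 G2/M members), where it did for 20.5% of all such genes, and below 0 for 1, Cenpf, where it did for 15.2%. Mki67 was at 3.39 on the log2 scale there (2.10 to 5.05), with 73 against 5 UMIs, and Dtl at 2.48 (1.64 to 3.44), with 101 against 13. Kif15, at -0.16, and Smc2, at 0.16, had intervals that held 0.

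The 141 nuclei of P301S/E4/TREM2- with at least 3 G2/M UMIs, Cenpf left out, carried microglia markers at 20960 CPM against 24440 in the rest, and homeostatic microglia genes at 11130 against 14540. Disease-associated microglia genes were at 7665 against 8909 CPM and interferon response genes at 2578 against 2688. Neuron markers were at 105 against 354 CPM, and border-associated macrophage markers at 669 against 999. Oligodendrocyte markers were higher in these nuclei, at 484 against 225 CPM, as were those of oligodendrocyte precursors (41.0 against 17.4, from 16 UMIs) and endothelial cells (89.7 against 31.1, from 35 UMIs). T or NK cell markers were at 0 in these nuclei, whose median was 1592 UMIs against 909 in the rest. All 141 held at least 1 microglia marker UMI. In P301S/E4/TREM2+, the 13 such nuclei had neuron markers at 2348 CPM against 201 and oligodendrocyte markers at 2601 against 276, and in E4/TREM2+ the 8 such nuclei had oligodendrocyte markers at 10060 CPM against 167. The part of other cell types in the counts of any library was not tested.

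Genes outside the 38 members were then ranked in the 314 nuclei of all libraries with at least 3 G2/M UMIs, Cenpf counted. Of the 12 with the largest CPM ratio over all other nuclei, among genes with at least 50 UMIs in those nuclei, 8 belonged to the wider cell-cycle lists used here, among them the kinesins Kif4 (72.3 against 0.685 CPM) and Kif23 (61.2 against 1.26), the chromosomal passenger kinase Aurkb (73.5 against 3.03) and Uhrf1, which maintains DNA methylation (56.8 against 2.85). Outside those lists were Ankle1, a nuclease (60.1 against 0.325 CPM), the centromere genes Cenph and Cenpk, and Zwilch, a kinetochore gene. The nuclei were chosen by cell-cycle UMIs and the lists with results known. The share of these lists among all genes ranked was not computed.

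In the wider lists, which were chosen with results known, the P301S/E4 pair of TREM2- and TREM2+ showed 27 of 51 further G2/M genes and 25 of 68 further S genes more than 2-fold higher and 0 lower, where 3.27% of all genes were higher and 3.39% lower. The helicase gene Hells, which remodels chromatin, was higher by 1.80 on the log2 scale (1.37 to 2.26), and Diaph3, an actin nucleator, by 1.85 (1.18 to 2.58). Of 11 genes for G1 cyclins, kinases and E2F factors, 2 were more than 2-fold higher and 1 lower. Ccnd3, a G1 cyclin gene, was lower by 1.49, at 64.9 against 182 CPM, and E2f2 higher by 1.31. Among 17 genes for cell-cycle inhibitors, 1 was higher, Gadd45b, at 13.5 against 4.67 CPM.

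In the edgeR fit, 5 of 34 further G2/M genes tested rose with tau and 1 fell, 3 of 57 further S genes rose and 0 fell, and 3 of 15 inhibitor genes rose and 2 fell, where 17.5% of all genes were called. Of 11 G1 genes 1, Cdk6, fell by 0.49 (SE 0.15, adjusted p = 0.0406). Gas2l3, a cytoskeletal linker of dividing cells, rose by 3.91 (SE 0.43, adjusted p = 0.000164), with 34.6, 63.7, 4.41, 28.4, 2.99 and 3.37 CPM in the order of libraries above. Unlike most members it was higher in the TREM2+ than in the TREM2- library of both tau backgrounds. Dna2, a replication nuclease, rose by 3.15 (SE 0.28, adjusted p = 5.41e-05), from 8.47 and 10.4 CPM in E4 to 103 and 68.6 in P301S/E4. Of the inhibitors, Gadd45a (3.30, SE 0.51, adjusted p = 0.00132), Gadd45b (2.22, SE 0.44, adjusted p = 0.00528) and Cdkn1a, which encodes p21 (1.44, SE 0.29, adjusted p = 0.00554), rose, and Btg2 (-1.54, SE 0.19, adjusted p = 0.000284) and Cdkn1c (-1.25, SE 0.35, adjusted p = 0.0315) fell. Gadd45a, Gadd45b and Cdkn1a also rose with APOE4, with edgeR adjusted p of 0.0132, 0.0454 and 0.0228. Cdkn1a was at 23.99 and 16.6 CPM in the P301S/E4 libraries and 6.31 to 8.56 in the others.

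In the authors' deposited table comparing P301S/E4/TREM2+ with P301S/E4/TREM2-, which gives log fold changes over nuclei, 21 of 38 members were below 0, that is higher in TREM2-, 7 at 0 and 10 above it. All 38 had an adjusted p of 1 in the authors' deposited table. Mki67 was at -3.69 there and Top2a at -1.16, and Rad51ap1, which was higher in TREM2- in the summed counts, was at 1.27. The members' values ran from -22.37 for Dtl to 20.72 for Brip1. The share of all genes below 0 in that comparison was not computed. Which nuclei entered that table is not given in the sources used here.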

How the data were processed

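Nuclei from pools of 3 mice were counted with Cell Ranger 3.0.1, per the file headers, against mm10, per the labels. The authors deposited counts of UMIs per gene and nucleus for 6 libraries. The authors' deposited cluster markers and their deposited P301S/E4 comparison give log fold changes, whose base is not stated and which are treated here as a score, and adjusted p-values.

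Nuclei with at least 200 genes and at most 5% mitochondrial UMIs were kept, 31738 of 33335. No doublet caller was run, and clusters were not rebuilt. UMIs were summed per library, 1 library per genotype. Pairs of libraries were compared by ratios with exact conditional binomial 95% intervals, which cover counting error only, and members past 2-fold were counted where the pair held at least 20 UMIs. The additive model was fitted over all genes with edgeR 4.0.16 (TMM factors, quasi-likelihood test, Benjamini-Hochberg adjustment at 0.05), with DESeq2 1.42.0 as an alternative, and was checked on simulated data. Nothing in the labels ties single mice to values. With 1 library per genotype, the p-values rest on departures from additive effects of background and TREM2 status, not on spread between replicate libraries. Shares of nuclei used 3 or more UMIs and exact binomial intervals, also after thinning to 500 or 1000 UMIs. Genes outside the members were named by rank of ratio or by adjusted p within lists. Coordinates are GENCODE's on GRCm38, and promoters are RefSeq's on GRCm38.p6. The members and lists were chosen with earlier results of these data known.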

Additional observations from a re-analysis of the deposited data

Results flagged for a closer look

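The ratio of TREM2- to TREM2+ went in opposite directions in different backgrounds, beyond counting error, for 3 members. The difference between backgrounds was not tested in any of them, since each genotype has 1 library. Cenpf was lower with TREM2 deletion in P301S/E4, with a log2 ratio of -0.42, and higher in E4, with 0.53. Mcm3, a helicase subunit gene, was higher in P301S/E4, with a log2 ratio of 0.88, and lower in P301S/EKO, with -1.43 from 28 against 89 UMIs. Rrm1, of the nucleotide enzyme, was higher in P301S/E4, with 0.48, and lower in P301S/EKO, with -0.74 from 28 against 55 UMIs.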

How the results depend on the processing

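Of the values recomputed under alternatives, 158 stayed within the limits set, 82 moved past them and 5 were counted as turned in direction. For summed levels, a turn was counted only where the main interval did not hold 0. A value whose main interval held 0 could thus change sign and be counted as within the limits or as moved. The cause of these moves was not tested. RLE factors in place of TMM left the counts of called members as they were. Median depth was 569 to 915 UMIs per nucleus. After thinning to 500 UMIs, the shares in 5 of the libraries rested on 12 to 16 S nuclei and 4 to 17 G2/M nuclei. Those in P301S/E4/TREM2- rested on 89 and 61. With 1 library per genotype, every pair is left without a replicate check. The number of members called in the edgeR fit ranged, on leaving out a library, from 0 to 6 for TREM2 deletion, 1 to 22 for tau and 0 to 15 for APOE4. With no filter on low counts it was 8, 12 and 6, where 1.07%, 14.3% and 5.98% of all genes were called. DESeq2 called 1 for tau, where 10.8% of all genes were called. Without nuclei above 3 times the median UMI, 2 were called for tau and 1 for APOE4, where 14.6% and 2.97% of all genes were. Without nuclei with 2 or more UMIs of other classes' markers (other-class nuclei below), the counts were the same, where 13.7% and 2.84% were. This cut took out 53.7% of the nuclei of P301S/E4/TREM2- and 29.3% to 48.2% of those of the other libraries. It rests on 2 UMIs over 114 marker genes, so deeper nuclei meet it more easily. The short name therefore does not give the cell type of the nuclei taken out. The additive fit already compares TREM2- with TREM2+ within each background, and no further pairing of libraries is given by the labels.

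For TREM2 deletion in P301S/E4, the fold of the share of nuclei with G2/M UMIs was 2.31 at 2 or more UMIs, 6.86 at 5 or more, 5.39 at 500 UMIs per nucleus, 9.58 without Cenpf and 6.94 without other-class nuclei. That with S UMIs was 3.06, 8.88, 2.98 at 1000 UMIs per nucleus and 11.1 without other-class nuclei. The log2 ratio of the summed G2/M level was 0.69 with equal weight per nucleus, 1.44 as the median over members, 1.54 without Cenpf and 1.32 without other-class nuclei. That of the S level was 0.71, 1.00 as the median and 1.09 without other-class nuclei.

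For TREM2 deletion in P301S/EKO, the share fold turned above 1 for G2/M, at 2.59 and 1.27 after thinning to 1000 and 500 UMIs, and for S was 0.912 and 1.204. In E4 the G2/M share fold was 3.74 (1.88 to 8.09, 39 against 11 nuclei), where it was 3.73 (2.64 to 5.37) in P301S/E4. The E4 fold was 3.47 (1.13 to 14.2) after thinning to 500 and 1.98 (0.786 to 5.38) without Cenpf. The S fold in E4 was 1.31 (0.780 to 2.21), and 2.99 (1.12 to 9.25) at 5 or more UMIs. After thinning to 1000 it was 2.59 (0.711 to 14.2), from 13 against 3 nuclei.

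For tau in TREM2- libraries, the G2/M share fold was 4.97 at 5 or more UMIs, 1.72 (0.954 to 3.37) after thinning to 1000 and 6.48 without Cenpf, and the S fold was 3.65 at 2 or more, 3.07 at 1000 and 3.50 at 500. The log2 ratio of G2/M was 1.16 as a median, 1.56 without Cenpf, 1.55 without other-class nuclei and 1.41 without macrophage-marker nuclei. That of S was 0.85 with equal weight and 0.82 without Atad2. In TREM2+ libraries the G2/M share fold was 3.07 (1.55 to 6.61) before thinning, 1.45 (0.420 to 6.36) at 500 and 1.34 (0.513 to 3.72) without Cenpf. The S fold was 1.59 (0.997 to 2.58) before thinning, 2.67 (0.813 to 13.8) at 1000 and 0.716 (0.323 to 1.62) at 500. Without other-class nuclei the S fold was 0.754 (0.318 to 1.76). The log2 ratio of G2/M was 0.30 as a median, 0.31 without Cenpf and 0.78 without macrophage-marker nuclei, and that of S was -0.069 without Atad2.

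For APOE4 in TREM2- libraries, the G2/M share fold was 14.6 at 5 or more UMIs, 1.88 (0.776 to 5.95) at 1000, 3.51 at 500, 11.3 without Cenpf and 10.9 without other-class nuclei. The S fold was 3.97 at 2 or more, 13.7 at 5 or more, 3.36 at 1000 and 3.15 at 500. The log2 ratio of G2/M was 1.29 as a median, 1.43 without Cenpf, 1.59 without other-class nuclei and 1.19 without macrophage-marker nuclei. That of S was 0.76 in nuclei with 500 or more genes, 0.76 with equal weight, 1.36 as a median and 1.07 without other-class nuclei. In TREM2+ libraries the G2/M share fold was 0.791 (0.482 to 1.31) before thinning and 1.40 (0.486 to 4.54) at 1000. The S fold was 0.532 (0.363 to 0.777) before thinning and 1.03 (0.534 to 2.03) at 1000. Without other-class nuclei the S fold was 0.312 (0.142 to 0.650). The log2 ratio of G2/M turned to -0.035 without Cenpf, and that of S was -0.26 as a median.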
